A study of Mus musculus with 7 samples.

Results

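The genes described here are 30 antioxidant enzymes and glutathione cycle genes of the mouse that lie outside the classic set of Nrf2 targets, chosen by symbol from the 49315 mouse genes in the count files. All 30 were found, each under a single gene ID. They hold 4 glutathione peroxidases, 4 peroxiredoxins, 4 glutaredoxins, 4 genes of the thioredoxin system, 3 superoxide dismutases with catalase, 4 methionine sulfoxide reductases, 4 glutathione cycle genes, and Park7 and Nnt. By the place where the protein is known to work, 13 were set down as cytosolic, 8 as mitochondrial, 3 as acting outside the cell or on its surface, 1 as peroxisomal and 1 as resident in the endoplasmic reticulum. The last 4 (Gpx4, Prdx5, Txnrd3 and Msra) occur in several compartments or were not assigned to a single place.

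The RNA came from pancreatic islets of mice aged 7 days. The tested animals were βNrf2KO mice, labelled as having a deletion of Nrf2 that is specific to β-cells, in 4 pools numbered 1, 2, 3 and 4. The controls were Nrf2lox/lox mice, which carry the floxed allele, in 3 pools numbered 1, 2 and 4. Each pool combined RNA of 5 animals. The sources used here give neither the promoter that drives Cre nor the strain or sex. The titles number single mice, while the protocol describes pools, and p-values measure the spread between these pools. Cells of the islet other than β-cells are not described as lacking Nrf2, and the counts come from whole islets.

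Superoxide, a by-product of respiration, is turned into hydrogen peroxide by superoxide dismutases, a separate enzyme serving the cytosol, the mitochondrial matrix and the extracellular space. Hydrogen peroxide is then removed by catalase in peroxisomes, by glutathione peroxidases with glutathione as donor, and by peroxiredoxins, which thioredoxin reduces again. Pancreatic β-cells of adult rodents are known for low catalase and low Gpx1, and they use peroxide as a signal as well as being harmed by it.

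Total counts per pool ran from 18187382 to 20847474 in βNrf2KO pools and from 21603654 to 25373105 in Nrf2lox/lox pools. The Cre entry held 23 to 73 counts per βNrf2KO pool and 0 in each Nrf2lox/lox pool. Nfe2l2, the gene of Nrf2, had 17.6, 15.2, 17.7 and 15.5 RPKM in βNrf2KO pools 1, 2, 3 and 4, against 22.7, 11.4 and 12.8 RPKM in Nrf2lox/lox pools 1, 2 and 4. The groups overlapped (log2 fold change 0.08 ± 0.23, edgeR adjusted p = 0.911), and counts over the whole gene and all islet cells do not check the deletion. The insulin genes were present in every pool, with Ins2 at 17075 to 24266 RPKM in βNrf2KO and 6311 to 19506 RPKM in Nrf2lox/lox, and Ins1 at 5485 to 7803 RPKM in βNrf2KO and 5998.5 to 15840 RPKM in Nrf2lox/lox. Nrf2lox/lox pools 1 and 2 stood apart from the other 5: the mitochondrial genome took 43.0% and 51.8% of their counts, against 10.02% to 27.7% in βNrf2KO pools and 14.6% in Nrf2lox/lox pool 4. The summed level of 9 β-cell markers was 27124 and 16891 CPM in those 2 pools. It was 33665 to 46082 CPM in βNrf2KO pools and 47760 CPM in Nrf2lox/lox pool 4. CPM are counts divided by the TMM-scaled library size and not by exon length. The markers were not of 1 direction: 7 of 9 had positive fold changes (Ins2 0.75 ± 0.36), while Ins1 (-0.66 ± 0.31) and Mafa, a β-cell transcription factor (-0.78 ± 0.22), had negative ones, and 0 of 9 passed (edgeR, adjusted p = 0.571 for these 3, and 1 of 9 at unadjusted p under 0.05).

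Levels are given as RPKM, in which counts are divided by exon length and by the TMM-scaled library size. This is the scale on which different genes can be compared. Over the 7 pools the 30 genes spanned from 0.0669 RPKM for Ggt1 to 143 RPKM for Gpx3. There were 9 genes above 10 RPKM, 17 between 1 and 10 RPKM, and 4 below 1 RPKM (Sod3, Oplah, Ggct and Ggt1). Of the 29 that passed the filter on low counts, 19 lay above the median level of all tested genes, which was 2.65 RPKM.

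The order of the highest levels was Gpx3 (143 RPKM), Txnip (78.3), Sod1 (56.1), Prdx6 (18.9), Gpx1 (17.0), Sod2 (16.7), Prdx2 (16.2), Glrx5 (15.2) and Gpx4 (10.1), each a mean over 7 pools. The ranges of Prdx6, Gpx1, Sod2, Prdx2 and Glrx5 overlapped. Within pools the order among these 5 changed from pool to pool, except that Prdx6 lay above Glrx5 in every pool. Lengths in the files add up all annotated exons of a gene. With the length of the principal transcript, an alternative chosen after seeing the data, the same 4 genes led (Gpx3 162, Txnip 87.5, Sod1 56.5 and Prdx6 38.1 RPKM). Below them 7 genes moved by more than 3 ranks: Sod2, Glrx5 and Txnrd3 moved down, and Glrx3, Park7, Txn2 and Gss moved up. The principal transcripts came from a separate annotation. For Sod2 and Glrx5 they were longer (5861 and 2925 bases) than all exons counted in the files (3824 and 930 bases). The levels and ranks of Sod2 and Glrx5 on that scale are therefore not comparable with those of the other genes.

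**Figure D1:**
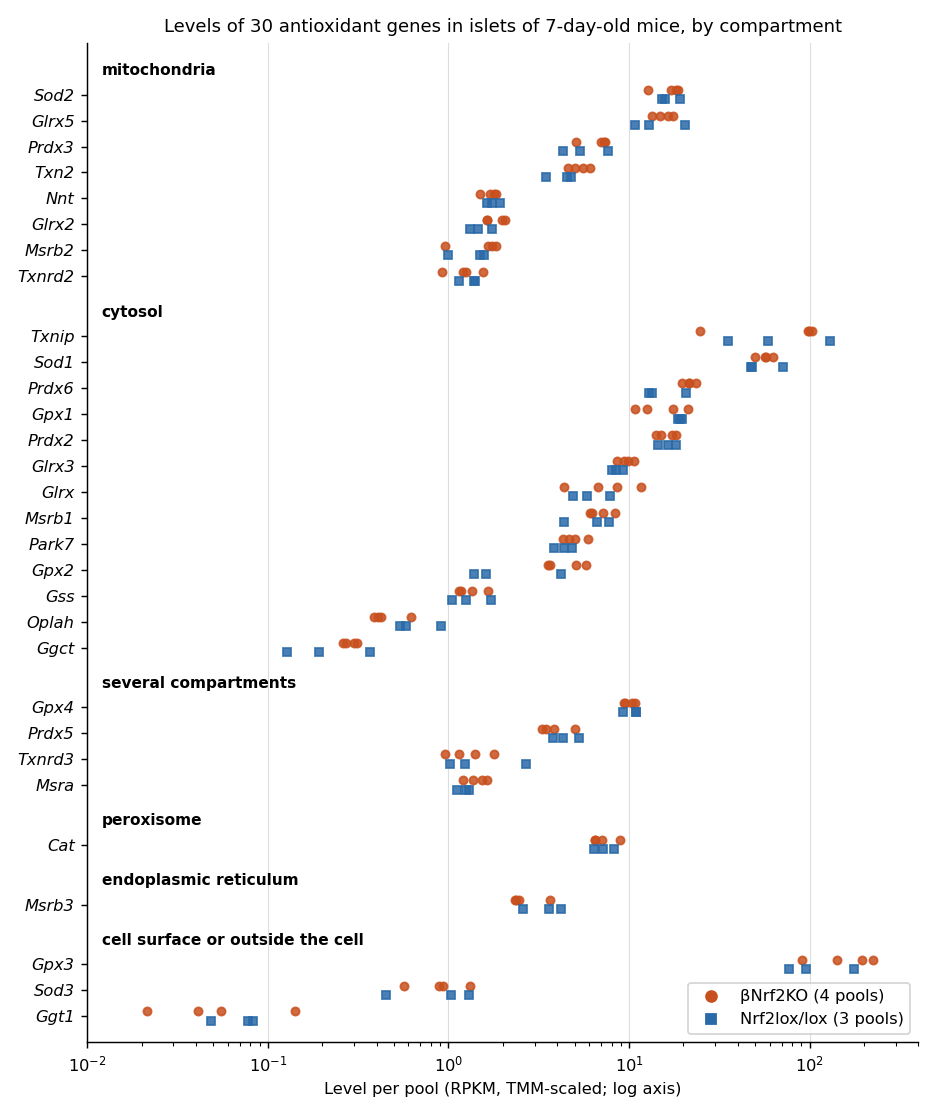
Level of each gene in every pool (RPKM on a log axis), grouped by compartment, with βNrf2KO pools as circles above the Nrf2lox/lox pools as squares. Gpx3, Txnip and Sod1 lie highest, from 24.8 to 225 RPKM over all pools, and the groups of pools overlap for each of the 30 genes.

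The peroxisomal member Cat averaged 7.25 RPKM and Msrb3, of the endoplasmic reticulum, 3.03 RPKM. In mitochondria Sod2 (16.7 RPKM) and Glrx5 (15.2) led, followed by Prdx3 (6.29) and Txn2 (4.86), while Nnt (1.73), Glrx2 (1.69), Msrb2 (1.46) and Txnrd2 (1.27) were lower. The 8 mitochondrial genes together took 9.57% to 13.1% of the summed RPKM of the 30 genes in βNrf2KO pools and 10.5% to 14.1% in Nrf2lox/lox pools. Gpx1 (17.0 RPKM), also found in mitochondria, was counted with the cytosol and not here. The 13 cytosolic genes took 45.3% to 52.0% in βNrf2KO pools and 51.8% to 52.8% in Nrf2lox/lox pools. Much of this was Txnip, whose protein restrains thioredoxin. It held 24.8 of 163 RPKM of the cytosolic sum in βNrf2KO pool 1 and 104 of 245 RPKM in βNrf2KO pool 4. In Nrf2lox/lox pools 1 and 4 it held 35.1 of 160 and 130 of 294 RPKM. The 3 genes at the cell surface or outside took 28.3% to 40.3% in βNrf2KO pools and 25.4% to 31.6% in Nrf2lox/lox pools, nearly all of it Gpx3. Catalase, the peroxisomal member, took 1.15% to 2.198% in βNrf2KO pools and 1.29% to 2.39% in Nrf2lox/lox pools. These shares are of RNA, and they weigh a gene by its transcript level and not by the activity of its enzyme.

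No member differed between βNrf2KO and Nrf2lox/lox islets past the threshold, an adjusted p of 0.05 in edgeR's quasi-likelihood test with Benjamini-Hochberg adjustment over all 19893 tested genes. The count was 0 of 29 tested members, on a background of 0.0% of all tested genes. It was also 0 in DESeq2, in limma-voom and once equally numbered pools were blocked, where 0.0704% of all genes were called. The smallest adjusted p of a member was 0.571. At unadjusted p under 0.05 there were 2 of 29 members, Prdx6 and Gpx2, both higher in βNrf2KO, where 8.46% of all tested genes reached that level and 3.23% did so in the higher direction. Ggt1, with 2 to 9 counts per pool, was the member that did not pass the filter.

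The sizes of the differences bound what could have been missed. Standard errors of the log2 fold changes ran from 0.15 (Glrx3) to 0.56 (Txnip), with a median of 0.24. Of the 29 members 17 were higher and 12 lower in βNrf2KO, and 49.4% of all tested genes were higher. The median log2 fold change was 0.07 for the members and -0.01 for all tested genes. Without Nrf2lox/lox pool 4 the members' median was 0.20, and without Nrf2lox/lox pool 1 it was -0.02. In 0 of 29 members did the pools of the groups separate fully, against 7.0% of all tested genes (3.19% higher and 3.81% lower in βNrf2KO). In 11 of 29 members the difference had the same sign in all 3 pairs of equally numbered pools, against 37.0% of all tested genes. Of these 7 were higher in βNrf2KO, where the background was 19.1%, and 4 were lower, where it was 17.9%.

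**Figure D2:**
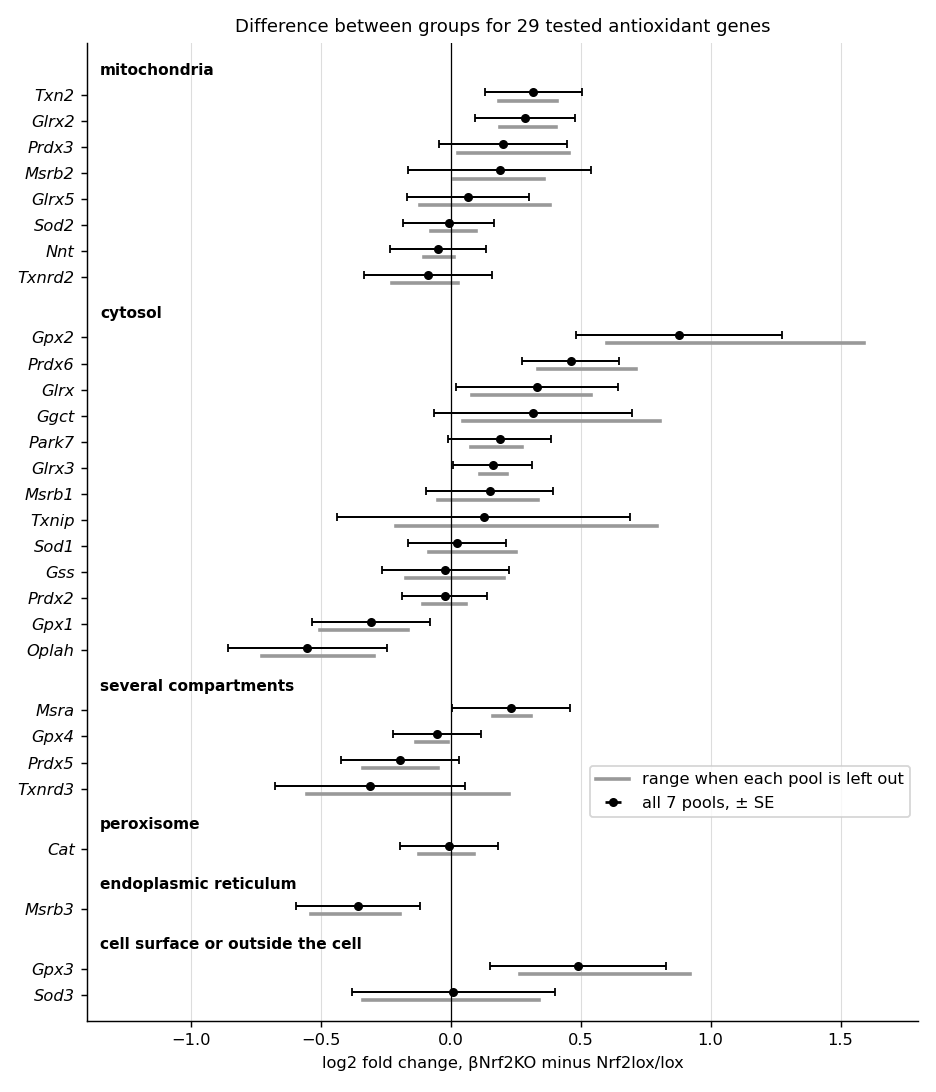
Log2 fold change of the 29 tested genes (βNrf2KO minus Nrf2lox/lox), grouped by compartment. Points are the fit of all 7 pools with bars of 1 SE, and grey bars span the values when each pool is left out. Gpx2 (0.88), Gpx3 (0.49) and Prdx6 (0.46) lie farthest to the right, Oplah (-0.55) farthest to the left, and Sod1, Sod2, Sod3 and Cat lie between -0.01 and 0.02.

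For superoxide dismutases and catalase no difference passed the threshold, and log2 fold changes lay between -0.01 and 0.02. Sod1, the copper and zinc enzyme of the cytosol, had 49.5, 56.4, 62.8 and 57.3 RPKM in βNrf2KO pools 1, 2, 3 and 4, against 47.7, 47.3 and 71.4 RPKM in Nrf2lox/lox pools 1, 2 and 4. Nrf2lox/lox pool 4 was the highest of the 7 and the other Nrf2lox/lox pools the lowest, so the βNrf2KO pools lay between them. The log2 fold change was 0.02 ± 0.19, with a 95% interval of -0.39 to 0.44 (edgeR, adjusted p = 0.969). Sod2, the manganese enzyme of the mitochondrial matrix, had 12.8, 17.0, 18.8 and 18.1 RPKM in βNrf2KO pools 1, 2, 3 and 4, against 15.2, 15.9 and 19.2 RPKM in Nrf2lox/lox pools 1, 2 and 4. βNrf2KO pool 1 was the lowest and the rest overlapped. Its difference was -0.01 ± 0.18, with an interval of -0.39 to 0.37 (adjusted p = 0.990 by edgeR).

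Cat, which breaks hydrogen peroxide down to water and oxygen in peroxisomes, had 7.09, 8.92, 6.44 and 6.50 RPKM in βNrf2KO pools 1, 2, 3 and 4. It had 6.41, 8.26 and 7.16 RPKM in Nrf2lox/lox pools 1, 2 and 4, so the groups covered the same range. The log2 fold change was -0.01 ± 0.19, with an interval of -0.42 to 0.40 (edgeR, adjusted p = 0.993). Cat was not among the scarce transcripts of these islets: 75.6% of tested genes had its mean level or a lower one. That sets its RNA against other genes of whole islets, and not β-cells against other tissues or ages. Per length, Sod1 exceeded Cat by 5.73 to 9.98 times over the 7 pools, and Sod2 exceeded it by 1.803 to 2.91 times. Sod3, the secreted dismutase that binds matrix, was low at 0.564 to 1.31 RPKM in βNrf2KO pools and 0.453 to 1.31 RPKM in Nrf2lox/lox pools. The log2 fold change of Sod3 was 0.01 ± 0.39, with a wide interval of -0.85 to 0.87. Its sign depended on the pools, at -0.34 without Nrf2lox/lox pool 4 and 0.34 without Nrf2lox/lox pool 2.

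The Sod1 start region is shown because it was, with Ggct, 1 of 2 among 25 members with a RefSeq promoter to hold the core of an antioxidant response element, the site that Nrf2 binds with a small Maf protein. The core searched was TGACNNNGC on both strands in the 250 bases before the RefSeq start, and 10.2% of 32851 promoters held it. For each member only the first listed promoter was searched, while the 32851 include every listed one. The windows of Ggt1, Glrx2, Gpx3 and Park7 lay inside the gene as the count files give it. The stretch is chr16:90220512-90220741 (GRCm38.p6, plus strand, 5′ to 3′), cut where the gene begins in the count files, and the capitals mark the match, on the minus strand 56 to 48 bases before the RefSeq start.
Sod1: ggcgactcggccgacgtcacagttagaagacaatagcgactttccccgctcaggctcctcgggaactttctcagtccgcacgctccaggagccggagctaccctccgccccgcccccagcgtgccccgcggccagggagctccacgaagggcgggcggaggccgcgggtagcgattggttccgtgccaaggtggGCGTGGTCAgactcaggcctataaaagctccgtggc
Sod1, with this match, differed by 0.02 on the log2 scale. Gpx2, with the largest fold change of the members, had no match in its window. A match is a description of letters and not a site of binding.

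Among the glutathione peroxidases the secreted form was by far the highest and the intestinal form had the largest fold change. Gpx3, the glutathione peroxidase of plasma, had 90.1, 141, 225 and 196 RPKM in βNrf2KO pools 1, 2, 3 and 4, against 77.1, 94.8 and 176 RPKM in Nrf2lox/lox pools 1, 2 and 4. Its level was above that of 99.6% of tested genes or equal to it. βNrf2KO pools 3 and 4 and Nrf2lox/lox pool 4 were high in Gpx3, and the groups overlapped (log2 fold change 0.49 ± 0.34, edgeR adjusted p = 0.634). It was 0.67 without βNrf2KO pool 1, 0.30 without βNrf2KO pool 3, 0.27 without Nrf2lox/lox pool 1 and 0.92 without Nrf2lox/lox pool 4, where the adjusted p by edgeR was 0.215. The same 3 pools had the most RNA of α-cells: the summed level of 5 α-cell markers, Gcg among them, was 5212, 7375, 18831 and 15496 CPM in βNrf2KO pools 1, 2, 3 and 4, against 4110, 4664 and 14121 CPM in Nrf2lox/lox pools 1, 2 and 4. The part of α-cells in the level of Gpx3 was not tested, and more cells of a type cannot be told apart from more RNA per cell in whole islets. Between equally numbered pools Gpx3 was higher in βNrf2KO by 0.22, 0.57 and 0.16 on the log2 scale for numbers 1, 2 and 4, and the blocked fit gave 0.32 ± 0.16 (edgeR, adjusted p = 0.450).

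Gpx2, the peroxidase of intestinal epithelium, had 3.56, 3.64, 5.76 and 5.10 RPKM in βNrf2KO pools 1, 2, 3 and 4. It had 1.38, 1.61 and 4.204 RPKM in Nrf2lox/lox pools 1, 2 and 4. Nrf2lox/lox pools 1 and 2 were the lowest, while Nrf2lox/lox pool 4 lay among the βNrf2KO pools. The group means were 4.51 ± 1.09 RPKM in βNrf2KO (SD, n = 4) and 2.40 ± 1.57 RPKM in Nrf2lox/lox (SD, n = 3). The log2 fold change was 0.88 ± 0.40 (edgeR, unadjusted p = 0.0470, adjusted p = 0.571), with an interval of 0.01 to 1.74, at 26 to 148 counts per pool. It was 1.59 without Nrf2lox/lox pool 4 and 0.60 without Nrf2lox/lox pool 1. It was higher in βNrf2KO in 3 of 3 pairs of equally numbered pools, by 1.12, 0.98 and 0.25 on the log2 scale.

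Gpx1, the main peroxidase of the cytosol, also found in mitochondria, had 21.1, 17.6, 12.5 and 10.7 RPKM in βNrf2KO pools 1, 2, 3 and 4, against 19.6, 19.1 and 18.6 RPKM in Nrf2lox/lox pools 1, 2 and 4. The Nrf2lox/lox pools were close together, 3 βNrf2KO pools lay below them and βNrf2KO pool 1 above. The group SDs were 4.74 RPKM in βNrf2KO and 0.524 RPKM in Nrf2lox/lox. The log2 fold change was -0.31 ± 0.23 (edgeR, adjusted p = 0.648), and leaving out single pools gave -0.50 to -0.16. At 90.9% of tested genes, Gpx1 was not a scarce transcript of whole neonatal islets. This rank is of RNA among the genes of mixed islet cells. It compares neither β-cells alone nor islets with other tissues or ages. Gpx4, which reduces lipid hydroperoxides within membranes, had 9.47, 10.8, 10.4 and 9.31 RPKM in βNrf2KO pools 1, 2, 3 and 4, against 10.9, 9.23 and 10.99 RPKM in Nrf2lox/lox pools 1, 2 and 4. Its 1.19-fold range over the 7 pools was the narrowest of the 30 genes.

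**Figure D3:**
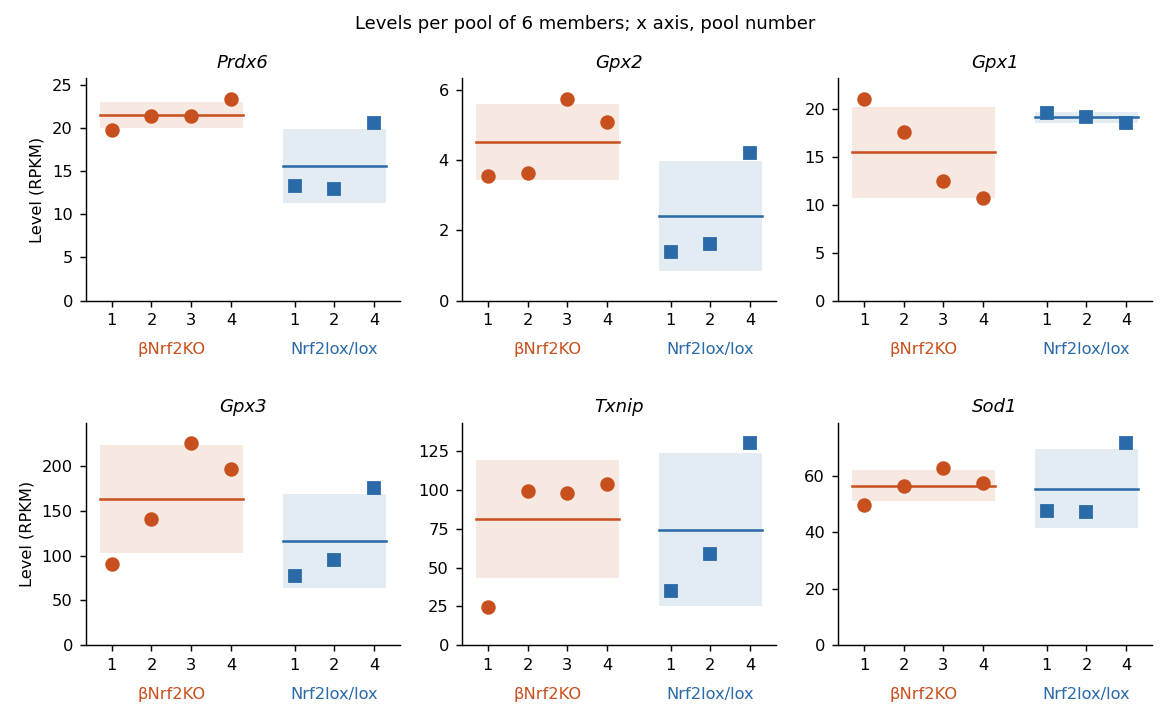
Level (RPKM, axes from 0) in each pool for 6 genes, with the pool number on the x axis, lines at group means and shaded bands of 1 SD. Prdx6 and Gpx2 are low in Nrf2lox/lox pools 1 and 2 and not in Nrf2lox/lox pool 4, Gpx1 spreads from 10.7 to 21.1 RPKM in βNrf2KO, and Txnip is low in pool 1 of both groups.

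The peroxiredoxins were led by Prdx6, which reduces phospholipid hydroperoxides and also has phospholipase activity. It had 19.7, 21.4, 21.4 and 23.4 RPKM in βNrf2KO pools 1, 2, 3 and 4, against 13.3, 12.9 and 20.5 RPKM in Nrf2lox/lox pools 1, 2 and 4. Nrf2lox/lox pools 1 and 2 were low, and Nrf2lox/lox pool 4 lay above βNrf2KO pool 1. The means were 21.5 ± 1.51 RPKM in βNrf2KO (SD, n = 4) and 15.6 ± 4.298 RPKM in Nrf2lox/lox (SD, n = 3). The log2 fold change was 0.46 ± 0.19, with an interval of 0.05 to 0.87 (edgeR, unadjusted p = 0.0299, adjusted p = 0.571). It was 0.71 without Nrf2lox/lox pool 4 and 0.34 without Nrf2lox/lox pool 2. The differences between equally numbered pools were 0.56, 0.73 and 0.19 on the log2 scale for numbers 1, 2 and 4. The Nrf2lox/lox pools that were low in Prdx6 and Gpx2 are those with the highest mitochondrial share and the lowest sum of β-cell markers, whose part in these differences was not tested. Against βNrf2KO pools not every β-cell marker was low there, and 2 of 9 had negative fold changes. Of these Mafa had 6.601 to 9.88 RPKM in βNrf2KO pools, against 11.3, 12.96 and 15.7 RPKM in Nrf2lox/lox pools 1, 2 and 4. Like every other marker of that list, Mafa was lower in Nrf2lox/lox pools 1 and 2 than in Nrf2lox/lox pool 4. The near-identical relatives of Prdx6, Prdx6b and Prdx6-ps2, held 0 to 7 and 0 to 3 counts per pool, so few reads were assigned to them. The sources used here do not say how multiply matching reads were treated.

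The other peroxiredoxins differed little. Prdx2, the abundant cytosolic form that red blood cells are rich in, ran from 14.0 to 18.3 RPKM in βNrf2KO and from 14.5 to 18.2 RPKM in Nrf2lox/lox (log2 fold change -0.02 ± 0.16). Prdx3, which removes hydrogen peroxide in the mitochondrial matrix, ran from 5.07 to 7.38 RPKM in βNrf2KO and from 4.33 to 7.64 RPKM in Nrf2lox/lox (0.20 ± 0.25). Prdx5, found in mitochondria, peroxisomes and the cytosol, ran from 3.302 to 5.00 RPKM in βNrf2KO and from 3.77 to 5.31 RPKM in Nrf2lox/lox (-0.20 ± 0.23). Prdx5 was lower in βNrf2KO in 3 of 3 pairs, by 0.18 to 0.45 on the log2 scale, and 19.1% of its exon bases overlap Trmt112 on the opposite strand. None of the 3 passed (edgeR, smallest adjusted p = 0.768).

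In the thioredoxin system Txnip varied more between pools of 1 group than any other tested member. It encodes a protein that binds and restrains thioredoxin and whose gene is induced by glucose in β-cells. It had 24.8, 99.0, 97.7 and 104 RPKM in βNrf2KO pools 1, 2, 3 and 4, against 35.1, 58.5 and 130 RPKM in Nrf2lox/lox pools 1, 2 and 4. Pool 1 was the lowest of its group in both genotypes, and Nrf2lox/lox pool 4 was the highest of all, 5.23-fold above βNrf2KO pool 1. The log2 fold change was 0.13 ± 0.56 (edgeR, adjusted p = 0.947). Its interval of -1.17 to 1.43 includes 2-fold differences in either direction. Blocked by pool number the difference was -0.02 ± 0.22 (adjusted p = 0.970), with a smaller error.

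The start region of Txnip is shown for the paired boxes through which glucose-responsive factors of the Mondo family are known to act, in a gene whose level ranged so widely. A pair of CACGAG boxes with 5 bases between them was searched on both strands in the same windows. It was found in 1 of 32851 promoters, that of Txnip (0.00304%). The boxes were already known and no other spelling was allowed, so the match in Txnip was fixed in advance. The count is of this exact spelling and does not measure how rare such elements are. The window is chr3:96557707-96557956 (GRCm38.p6, plus strand, 5′ to 3′), and the capitals mark the match, 85 to 69 bases before the start.
Txnip: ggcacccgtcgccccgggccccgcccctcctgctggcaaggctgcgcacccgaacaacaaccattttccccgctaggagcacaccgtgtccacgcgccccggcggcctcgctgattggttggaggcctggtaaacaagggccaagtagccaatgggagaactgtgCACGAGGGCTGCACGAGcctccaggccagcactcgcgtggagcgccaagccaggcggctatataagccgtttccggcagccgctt
The glucose level of the animals was not used here.

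The enzymes of mitochondrial thioredoxin were steadier. Txn2, the thioredoxin of mitochondria, had 4.603, 6.05, 5.57 and 5.04 RPKM in βNrf2KO pools 1, 2, 3 and 4, against 4.55, 3.45 and 4.78 RPKM in Nrf2lox/lox pools 1, 2 and 4. In Txn2 3 of 4 βNrf2KO pools lay above every Nrf2lox/lox pool and βNrf2KO pool 1 lay within their range (log2 fold change 0.32 ± 0.19, edgeR adjusted p = 0.595). Txnrd2, the selenoenzyme that reduces it, ran from 0.927 to 1.54 RPKM in βNrf2KO and from 1.14 to 1.41 RPKM in Nrf2lox/lox (-0.09 ± 0.25). Txnrd3, known from testis, ran from 0.959 to 1.79 RPKM in βNrf2KO and from 1.02 to 2.70 RPKM in Nrf2lox/lox (-0.31 ± 0.37), and its sign turned without Nrf2lox/lox pool 2 (0.22).

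The glutaredoxins use glutathione to free proteins from mixed disulfides or carry iron-sulfur clusters. Fold changes were positive in 4 of 4 members, as in 49.4% of all tested genes, and 0 passed the threshold (edgeR, smallest adjusted p = 0.631). The sign of Glrx5 turned without Nrf2lox/lox pool 2 (-0.12). Between the pools numbered 1, Glrx and Glrx3 were lower in βNrf2KO (-0.39 and -0.10 on the log2 scale). Glrx, the cytosolic enzyme, had 4.38, 6.75, 11.6 and 8.58 RPKM in βNrf2KO pools 1, 2, 3 and 4, against 5.87, 4.91 and 7.83 RPKM in Nrf2lox/lox pools 1, 2 and 4. βNrf2KO pool 1 was the lowest and βNrf2KO pool 3 the highest, so the Nrf2lox/lox pools lay within the βNrf2KO range. Its log2 fold change was 0.33 ± 0.31, and 0.06 ± 0.23 with the block. As with Gpx3, the 3 highest pools in Glrx were those with the highest sum of α-cell markers, whose part was not tested.

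Glrx2, of mitochondria, had 1.63, 1.64, 2.07 and 1.99 RPKM in βNrf2KO pools 1, 2, 3 and 4, against 1.46, 1.31 and 1.74 RPKM in Nrf2lox/lox pools 1, 2 and 4. It was higher in βNrf2KO in 3 of 3 pairs, by 0.16 to 0.32 on the log2 scale, while the groups overlapped through Nrf2lox/lox pool 4 (log2 fold change 0.28 ± 0.19). Glrx3, a cytosolic carrier of iron-sulfur clusters, had 8.58, 10.6, 9.89 and 9.41 RPKM in βNrf2KO pools 1, 2, 3 and 4, against 9.22, 8.08 and 8.49 RPKM in Nrf2lox/lox pools 1, 2 and 4. Here 3 of 4 βNrf2KO pools lay above the Nrf2lox/lox pools, and the difference was 0.16 ± 0.15. Glrx5, needed for iron-sulfur clusters in mitochondria, was the highest glutaredoxin at 13.4 to 17.4 RPKM in βNrf2KO and 10.8 to 20.4 RPKM in Nrf2lox/lox (0.07 ± 0.24). With the principal transcript length Glrx3 was at 27.3 RPKM, above Glrx5 on either scale. The 4.82 RPKM of Glrx5 on that scale divides counts over 930 exon bases by 2925 bases of a separate annotation, and is not a comparable level.

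Methionine sulfoxide reductases repair oxidized methionine, Msra the S form and the Msrb enzymes the R form. Msrb3, of the endoplasmic reticulum, had 2.46, 3.63, 2.35 and 2.34 RPKM in βNrf2KO pools 1, 2, 3 and 4, against 3.61, 4.21 and 2.59 RPKM in Nrf2lox/lox pools 1, 2 and 4. βNrf2KO pool 2 and Nrf2lox/lox pools 1 and 2 were high, and the log2 fold change was -0.36 ± 0.24 (edgeR, adjusted p = 0.62). The same 3 pools had the highest sums of 6 fibroblast markers, which were 474, 833, 392 and 496 CPM in βNrf2KO pools 1, 2, 3 and 4, against 1340, 1099 and 441 CPM in Nrf2lox/lox pools 1, 2 and 4. All 6 markers were detected in every pool, all 6 had negative fold changes with 0 past the threshold, and the part of fibroblast RNA in the level of Msrb3 was not tested. Other lists were highest in the same 3 pools. Smooth muscle and pericyte markers summed to 909 CPM in βNrf2KO pool 2, and to 1118 and 1821 CPM in Nrf2lox/lox pools 1 and 2, against 604 to 675 CPM in the other 4 pools. Acinar, macrophage and leukocyte, and erythroid markers also had their 3 highest sums there, and the part of none of these lists was tested. Msrb1, the cytosolic selenoenzyme, was the highest of the family at 6.07 to 8.33 RPKM in βNrf2KO and 4.38 to 7.74 RPKM in Nrf2lox/lox (0.15 ± 0.24). Msra ran from 1.198 to 1.63 RPKM in βNrf2KO and from 1.12 to 1.31 RPKM in Nrf2lox/lox (0.23 ± 0.23). Msrb2, of mitochondria, ran from 0.953 to 1.83 RPKM in βNrf2KO and from 0.990 to 1.57 RPKM in Nrf2lox/lox (0.19 ± 0.35).

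The glutathione cycle genes were the lowest group of the list, with a median level of 0.406 RPKM over 4 genes. Gss, glutathione synthetase, ran from 1.15 to 1.65 RPKM in βNrf2KO and from 1.05 to 1.72 RPKM in Nrf2lox/lox (log2 fold change -0.02 ± 0.24). Oplah, which opens oxoproline to recover glutamate, had 0.385, 0.617, 0.409 and 0.422 RPKM in βNrf2KO pools 1, 2, 3 and 4, against 0.584, 0.904 and 0.540 RPKM in Nrf2lox/lox pools 1, 2 and 4. In Oplah 3 of 4 βNrf2KO pools lay below every Nrf2lox/lox pool, and βNrf2KO pool 2 lay within their range. Its 3 highest pools were those named for Msrb3, with the highest fibroblast, smooth muscle, acinar, macrophage and erythroid marker sums, whose part was not tested. Its difference of -0.55 ± 0.31 was the lowest of the 29 fold changes (edgeR, adjusted p = 0.585), at 42 to 95 counts per pool, and 11.7% of its exon bases overlap Exosc4 and Smpd5 on the opposite strand. Ggct, which cleaves γ-glutamyl dipeptides, held 15 to 63 counts per pool (0.32 ± 0.38), and its difference was 0.047 without Nrf2lox/lox pool 2 and 0.80 without Nrf2lox/lox pool 1. Ggt1, which begins the breakdown of glutathione at the cell surface, had 0.0215 to 0.141 RPKM in βNrf2KO and 0.0487 to 0.0833 RPKM in Nrf2lox/lox and was not tested.

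Nnt and Park7 complete the list. Nnt, the transhydrogenase of the inner mitochondrial membrane that supplies NADPH to the matrix, had 1.49, 1.84, 1.79 and 1.70 RPKM in βNrf2KO pools 1, 2, 3 and 4, against 1.63, 1.92 and 1.74 RPKM in Nrf2lox/lox pools 1, 2 and 4. The groups overlapped closely (log2 fold change -0.05 ± 0.18, edgeR adjusted p = 0.934). Mice of the C57BL/6J strain are known to lack part of this gene, and counts per gene do not show which exons were read. Park7, a redox-sensitive protein linked to Parkinson disease in humans, ran from 4.28 to 5.91 RPKM in βNrf2KO and from 3.83 to 4.85 RPKM in Nrf2lox/lox (0.19 ± 0.20, adjusted p = 0.746 by edgeR).

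By compartment the median log2 fold change was 0.13 over 8 mitochondrial genes and 0.15 over 13 cytosolic genes, with 5 of 8 and 9 of 13 higher in βNrf2KO. Single pools moved both medians: without Nrf2lox/lox pool 4 they were 0.35 for mitochondrial and 0.25 for cytosolic genes, and without Nrf2lox/lox pool 1 they were -0.00 and -0.02. The median was -0.13 over the 4 genes of several compartments and 0.25 over the 2 tested genes outside the cell, Gpx3 and Sod3. With no filter on low counts Ggt1 entered and the median outside the cell was 0.019. The list also holds 7 selenoproteins (Gpx1, Gpx2, Gpx3, Gpx4, Txnrd2, Txnrd3 and Msrb1), enzymes that carry selenocysteine at the active site. Of these 3 were higher and 4 lower in βNrf2KO, with a median of -0.05, and of the other 22 tested members 14 were higher and 8 lower, with a median of 0.10.

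Single pools were high or low in many genes at once. Nrf2lox/lox pool 2 was the lowest of the 7 pools in 11 of 29 genes, and Nrf2lox/lox pool 4 was the highest in 8. The median deviation of the 29 genes from their means over all pools was -0.06, 0.09, 0.13 and 0.04 on the log2 scale in βNrf2KO pools 1, 2, 3 and 4, against -0.11, -0.16 and 0.15 in Nrf2lox/lox pools 1, 2 and 4. The range over the 7 pools was under 2-fold for 21 genes. The other 8 were Txnip, Gpx2, Gpx3, Sod3, Ggct, Txnrd3, Glrx and Oplah.

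**Figure D4:**
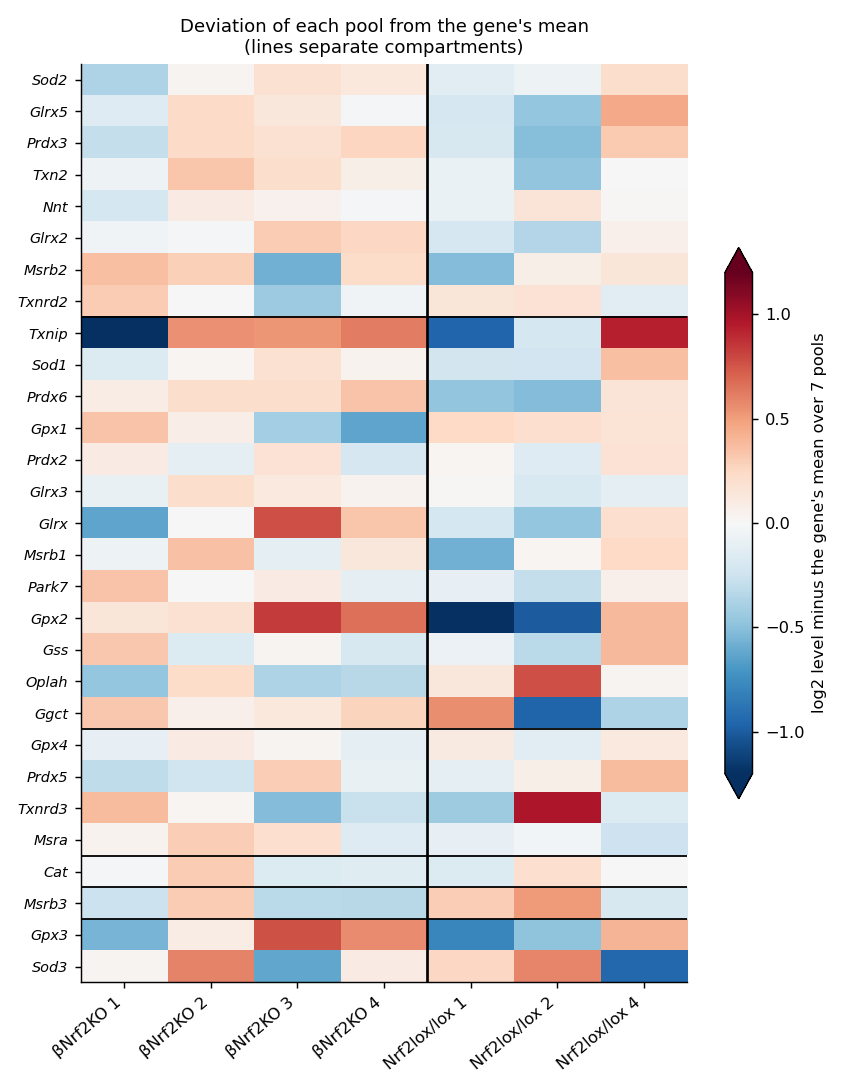
Log2 level of each tested gene in each pool minus its mean over the 7 pools, as colours from blue (lower) to red (higher), with βNrf2KO pools left of Nrf2lox/lox pools. Txnip stands out at pool 1 of both groups, Gpx2 is low in Nrf2lox/lox pools 1 and 2, and Cat, Gpx4, Prdx2 and Nnt stay pale throughout.

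Genes that work with the list were read beside it. Counts of higher and lower genes in these lists stand against 49.4% of all tested genes that were higher in βNrf2KO. Of 10 classic Nrf2 targets of the glutathione and thioredoxin systems, 7 were higher and 3 lower, and 0 passed the threshold in either direction. Txn1, the cytosolic thioredoxin, averaged 9.43 ± 1.46 RPKM in βNrf2KO (SD, n = 4) and 13.8 ± 1.44 RPKM in Nrf2lox/lox (SD, n = 3), and Gclm, of the enzyme that begins glutathione synthesis, averaged 10.4 ± 1.07 and 7.14 ± 1.89 RPKM in the same groups. In both genes every βNrf2KO pool lay on the same side of every Nrf2lox/lox pool, as in 7.0% of all tested genes. Of 11 genes of NADPH supply, 9 were higher and 2 lower. Idh1 and Idh2, the NADPH-forming isocitrate dehydrogenases of the cytosol and of mitochondria, differed by 0.58 ± 0.27 and 0.36 ± 0.19 on the log2 scale. In both genes the pools of the groups overlapped. Of 5 tested peroxidases and oxidases of the endoplasmic reticulum, 3 were higher and 2 lower, and the oxidases Ero1l and Ero1lb differed by 1.33 ± 0.32 and 0.38 ± 0.20. In Ero1l every βNrf2KO pool (16.9 to 27.8 RPKM) lay above every Nrf2lox/lox pool (3.93 to 11.9 RPKM), as in 3.19% of all tested genes. Its adjusted p by edgeR was 0.571, and in Ero1lb the pools overlapped.

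Genes that make selenoproteins were 4 higher and 3 lower of 7. Sepsecs, which forms selenocysteine on its transfer RNA, differed by 0.32 ± 0.19, and Pstk, which prepares that step, by 0.54 ± 0.34. Of 13 tested selenoproteins outside the list 8 were higher and 5 lower, with Selenoi at 0.46 ± 0.25 and Selenot at 0.39 ± 0.23. Of 11 tested enzymes that make superoxide or hydrogen peroxide 3 were higher and 8 lower (median -0.24). Among them Maob, the monoamine oxidase of the outer mitochondrial membrane, differed by 0.64 ± 0.29 on the log2 scale. Over these 6 lists, with 10, 11, 5, 7, 13 and 11 tested genes, 0 passed in either direction (edgeR, smallest adjusted p = 0.571). At unadjusted p under 0.05 there were 4, a level that 8.46% of all tested genes reached.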

How the data were processed

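Ribosome-depleted total RNA of 7 pools was sequenced. The authors deposited raw counts per gene, counted by featureCounts (Subread 1.5.2) after STAR 2.5.2b alignment of Trimmomatic 0.36 output, per the submitters' processing notes. Strand, treatment of multiply matching reads and annotation version are not given in the sources used here. A newer build is named there, but 91.4% of gene IDs shared with GENCODE M21 (GRCm38) had the same start and end in the files. Counts were tested with edgeR 4.0.16 in R 4.3.3 (TMM, filterByExpr by group, robust quasi-likelihood fit, two-sided, Benjamini-Hochberg over 19893 genes), as βNrf2KO minus Nrf2lox/lox, over 4 and 3 pools. The ± beside a log2 fold change is its standard error, and intervals are 95% intervals of that fit. The Cre entry stayed out of library sizes and tests. RPKM and CPM were computed here from the deposited counts, the lengths in the files and TMM-scaled library sizes, without principal transcript lengths unless stated. Pools, not animals, are the replicates, and the labels do not say that pools were independent litters. Precision rests on counts of 2 to 12196 per gene and pool, and counting error is only part of the spread between pools.

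After removal of group means, equally numbered pools correlated across genes at r = 0.376, 0.229 and 0.323 (numbers 1, 2 and 4), and differently numbered pools at -0.353 to 0.241, the highest being βNrf2KO pool 3 with Nrf2lox/lox pool 4. Since every equally numbered pair exceeded 0.1, the numbers were treated as pairs in an alternative fit blocked by that number, and βNrf2KO pool 3 has no partner there. Per-pair differences are of log2(CPM + 0.5). Other alternatives were RLE and upper-quartile normalization, counts without the mitochondrial genome, no filter, a filter of 1 CPM in 3 pools, DESeq2 1.42.0, limma-voom (limma 3.58.1) with quality weights, a threshold of 0.1 and leaving out each pool. Promoter sequences are those of RefSeq (GRCm38.p6), matched by symbol for 25 of 30 genes. The genes, lists and compartments were chosen with earlier results of these data known. Values in every pool are given for the 10 members with the smallest p, the highest member of each compartment, and Gpx1, Cat, Sod1, Sod2 and Nnt, and the 2 genes with the smallest p are named per partner list, except 1 that is not reported here. Ins1 and Mafa were named after their values were seen.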

Additional observations from a re-analysis of the deposited data

Results flagged for a closer look

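Within the 4 βNrf2KO pools, 4 of 30 genes had a single pool far from the other 3, by the gap to its neighbour over the whole range. The nominal rate of this rule is about 1 in 20 groups. The share of all tested genes that it flags was not computed, so 4 of 30 is not read as an excess. Txnip was 24.8 RPKM in βNrf2KO pool 1, against 97.7 to 104 RPKM in the other βNrf2KO pools, and pool 1 was also the lowest Nrf2lox/lox pool. Prdx3 was 5.07 RPKM in the same βNrf2KO pool, against 7.01 to 7.38 RPKM in the others. Msrb3 was 3.63 RPKM in βNrf2KO pool 2, against 2.34 to 2.46 RPKM, and Oplah was 0.617 RPKM in that pool, against 0.385 to 0.422 RPKM. βNrf2KO pool 2 also had the highest sums of fibroblast (833 CPM), smooth muscle and pericyte (909 CPM), acinar (225 CPM), macrophage and leukocyte (56.0 CPM) and erythroid (291 CPM) markers among the βNrf2KO pools, and their part was not tested.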

How the results depend on the processing

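No member passed the threshold under any of the 15 other fits or at a threshold of 0.1, and the smallest adjusted p of a member was 0.160, without Nrf2lox/lox pool 4. Pools of RNA from 5 animals each, 4 against 3, limit what could be called, and 9 of 29 standard errors exceeded 0.3. At unadjusted p under 0.05, 1 of 29 members was higher in βNrf2KO with upper-quartile normalization and 1 with the filter of 1 CPM. Leaving out each pool gave 0 to 3 higher and 0 to 1 lower members. The share of all tested genes at that level was 8.46% in the main fit. It is not given for these other fits, so their counts are not set against a background. The replicate block changed no call of a member. It gave a cytosolic median of 0.060 and signs opposite to the main fit for Txnrd2 (0.024), Txnip (-0.025), Sod1 (-0.0066) and Cat (0.037). The sign of Sod3 turned with upper-quartile normalization (-0.0018), and those of Sod2 (0.040) and Cat (0.012) with limma-voom. The cause was not tested.

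When each pool was left out, medians ran from -0.020 to 0.20 for all members, -0.022 to 0.25 for the cytosol, -0.0045 to 0.35 for mitochondria and -0.16 to 0.044 for several compartments. Log2 fold changes that changed sign ran from -0.17 to 0.21 (Gss), -0.12 to 0.38 (Glrx5), -0.23 to 0.027 (Txnrd2), -0.56 to 0.22 (Txnrd3), -0.21 to 0.80 (Txnip), -0.11 to 0.059 (Prdx2), -0.084 to 0.25 (Sod1), -0.075 to 0.10 (Sod2), -0.34 to 0.34 (Sod3), -0.12 to 0.088 (Cat), -0.051 to 0.33 (Msrb1) and -0.10 to 0.012 (Nnt). Of those that kept their sign, Gpx2 ranged from 0.60 to 1.59, Prdx6 from 0.34 to 0.71, Gpx3 from 0.27 to 0.92, Glrx from 0.081 to 0.54 and Prdx3 from 0.026 to 0.46, each highest without Nrf2lox/lox pool 4. Ggct ranged from 0.047 to 0.80 and Oplah from -0.73 to -0.29.

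Mean levels in βNrf2KO depend on the denominator by construction. Without the mitochondrial genome in library sizes, RPKM was 21.7 for Gpx1, 10.2 for Cat, 79.3 for Sod1, 23.4 for Sod2 and 2.39 for Nnt. As TPM over nuclear genes it was 70.3, 33.2, 259.6, 76.7 and 7.84 for the same genes. With principal transcript lengths RPKM was 20.8 for Gpx1, 10.9 for Sod2 and 3.46 for Nnt. The value for Sod2 divides counts over 3824 exon bases by 5861 bases of a separate annotation, so it is not a comparable level.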
